A study of Rattus norvegicus with 9 samples.

Results

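The genes described here encode collagen IV (Col4a1 to Col4a6), the nidogens (Nid1 and Nid2) and the basement membrane heparan sulfate proteoglycans perlecan (Hspg2) and agrin (Agrn). They were followed in cultured rat fibroblasts (Fb) from 3 tissues. The expression table held 32883 genes, and 9 of these 10 were found in it by gene symbol. Hspg2 was not listed under its symbol. It was taken from the row with Ensembl identifier ENSRNOG00000021437, listed as AABR07073181.1, whose Entrez gene identifier RefSeq assigns to Hspg2, so that 10 genes of 32883 are described. Fb-Epn were grown from the epineurium (the connective tissue sheath of the sciatic nerve), Fb-Par from the nerve parenchyma inside that sheath, and Fb-Skn from abdominal skin freed of subcutaneous fat, with 3 samples of each type. All came from wild-type male Lewis rats of 10 weeks, the nerves from 2 rats and the skin from 1 other rat. All were grown in uncoated flasks with fetal bovine serum and no further treatment, and were passaged 1 time, 3 to 4 days after seeding. The 3 samples of a type therefore cannot be 3 animals, p-values measure the spread between these samples, which may be technical, and Fb-Skn differed from the nerve cultures in tissue, body site and animal, which cannot be told apart. In such bulk cultures, fewer cells that express a gene and less RNA per cell cannot be told apart either.

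Basement membranes are thin sheets of matrix on which epithelia, endothelia, muscle and Schwann cells rest. In nerve, each axon and Schwann cell unit has a basement membrane inside the parenchyma, and perineurial cells and blood vessels have their own. Collagen IV forms the covalent network of the sheet from trimers. The common trimer holds chains from Col4a1 and Col4a2, and other trimers are built from Col4a3, Col4a4 and Col4a5 or from Col4a5 and Col4a6. Nidogens link this network to the laminin network, and perlecan and agrin are large core proteins whose heparan sulfate chains bind growth factors. Agrin also organises the neuromuscular junction. The 6 collagen IV genes lie in the genome as 3 head-to-head pairs, in which both genes of a pair are read away from a shared region.

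The promoter sequences of the first 2 pairs are shown because the first pair had like levels across the cultures and the second did not. They are RefSeq sequences of the GRCr8 assembly, each from 250 bases before to 50 bases into the gene, written from 5′ to 3′ along the gene. Capitals mark the stretch that a gene's window shares with that of its partner, where the windows are reverse complements of each other.
Col4a1 promoter (GRCr8, chr16:84885347-84885646, plus strand): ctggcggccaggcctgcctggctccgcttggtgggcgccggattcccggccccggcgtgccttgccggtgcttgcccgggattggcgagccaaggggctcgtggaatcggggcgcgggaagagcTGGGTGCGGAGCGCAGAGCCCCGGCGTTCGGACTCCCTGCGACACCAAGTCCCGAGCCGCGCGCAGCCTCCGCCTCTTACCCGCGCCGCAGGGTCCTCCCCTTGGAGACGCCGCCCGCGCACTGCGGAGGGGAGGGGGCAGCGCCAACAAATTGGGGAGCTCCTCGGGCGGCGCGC
Col4a2 promoter (GRCr8, chr16:84885471-84885770, minus strand): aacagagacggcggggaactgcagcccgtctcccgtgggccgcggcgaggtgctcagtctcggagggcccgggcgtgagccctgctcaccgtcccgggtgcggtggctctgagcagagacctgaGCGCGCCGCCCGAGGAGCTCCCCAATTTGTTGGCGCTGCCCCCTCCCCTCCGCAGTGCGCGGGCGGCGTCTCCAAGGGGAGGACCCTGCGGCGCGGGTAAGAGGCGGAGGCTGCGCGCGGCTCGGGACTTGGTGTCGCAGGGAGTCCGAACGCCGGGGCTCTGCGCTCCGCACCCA
Col4a3 promoter (GRCr8, chr9:91323740-91324039, plus strand): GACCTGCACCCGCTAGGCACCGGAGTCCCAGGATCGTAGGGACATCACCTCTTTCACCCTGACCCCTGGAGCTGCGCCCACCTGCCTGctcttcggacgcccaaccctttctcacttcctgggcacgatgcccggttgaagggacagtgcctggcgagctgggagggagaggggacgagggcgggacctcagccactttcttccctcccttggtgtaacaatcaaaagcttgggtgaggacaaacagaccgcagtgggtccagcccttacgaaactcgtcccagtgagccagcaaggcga
Col4a4 promoter (GRCr8, chr9:91323528-91323827, minus strand): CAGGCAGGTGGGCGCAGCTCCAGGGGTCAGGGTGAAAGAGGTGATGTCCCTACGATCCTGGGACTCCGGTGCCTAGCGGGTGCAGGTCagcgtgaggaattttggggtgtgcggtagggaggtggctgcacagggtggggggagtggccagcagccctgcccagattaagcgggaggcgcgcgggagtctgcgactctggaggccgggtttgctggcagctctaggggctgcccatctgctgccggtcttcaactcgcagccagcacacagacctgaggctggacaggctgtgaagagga
The windows of Col4a1 and Col4a2 shared 176 bases, with 77 bases between the starts of the genes, and those of Col4a3 and Col4a4 shared 88 bases, with 413 bases between the starts. The windows of Col4a5 and Col4a6 shared 0 bases, with 1415 bases between the starts on chromosome X. In the rn6 gene models on which reads were counted, the starts were 374 bases apart for Col4a3 and Col4a4 but 83601 bases apart for Col4a1 and Col4a2 and 295823 bases apart for Col4a5 and Col4a6. Thus rn6 and GRCr8 place the starts of the first and the third pair differently.

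Of the 10 genes, 9 had a promoter entry, Nid2 being the exception, and 3 motifs were searched on both strands. The GC box (GGGCGG) was present in 33.1% of all 33469 windows of this length, the CCAAT box (CCAAT) in 37.5% and the TATA box (TATAAA) in 14.2%. The Col4a1 window held 2 GC boxes and 2 CCAAT boxes, and that of Col4a2 held 2 GC boxes and 1 CCAAT box. Because the windows overlap, a motif inside the shared stretch is counted for both genes. Col4a3 had 1 GC box, and Col4a4 had 0 matches to any of the 3 motifs. The Hspg2 window held 6 GC boxes, that of Nid1 2 GC boxes and 1 CCAAT box, and that of Agrn 0 matches. Col4a5 and Col4a6 each held 1 GC box, and TATAAA was found in 0 of the 9 windows. The G and C content was 75.0% for Col4a1 and 73.7% for Col4a2, against a median of 51.7% over all windows. High content was not particular to this pair. It was 70.0% for Hspg2, 66.3% for Nid1, 65.3% for Col4a4, 62.0% for Col4a3, 60.0% for Agrn, 53.3% for Col4a5 and 48.3% for Col4a6.

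The libraries held 10084584 to 12310506 counted reads. Within a type, log2 expression correlated at r = 0.987 to 0.990 across genes, and between types at r = 0.911 to 0.932, so that no library stood apart. The labelled cell type was checked against 8 fibroblast markers, such as Col1a1 and Pdgfra. All 8 were detected in every type, and their summed level was 43232 to 43970 TPM (a level per gene length, scaled to the same total in every library) in Fb-Epn, 34300 to 34929 in Fb-Par and 43079 to 47295 in Fb-Skn. Markers of cells that carry or make basement membrane differed between the types. The 10 Schwann cell markers summed to 194 to 204 TPM in Fb-Epn, 270 to 277 in Fb-Par and 10.5 to 13.2 in Fb-Skn. Of these, 6 were at 0 in every Fb-Skn library, Sox10 and Erbb3 among them, and Mal was at 0 in all 9 libraries. The 10 pericyte and smooth muscle markers, led by Acta2, summed to 3578 to 3806, 5884 to 6060 and 10915 to 11377 TPM in the same order, with Rgs5 and Kcnj8 at 0 in Fb-Skn. Without Acta2, the other 9 summed to 324 to 335, 889 to 914 and 808 to 833 TPM. The 9 endothelial markers found of 10 listed summed to 24.3 to 38.5 TPM over all libraries. Much of this was Egfl7, and without it the other 8 summed to 16.6 to 17.5, 10.6 to 12.5 and 1.004 to 1.604 TPM in the same order of types. Most of the remainder in Fb-Par was Tek (mean 8.37, 10.2 and 1.20 TPM). Cdh5 (1.78, 0.097 and 0 TPM) and Tie1 (4.19, 0.68 and 0.015 TPM) were instead highest in Fb-Epn. Cdh5, Emcn, Cldn5 and Esam were at 0 in Fb-Skn and Cldn5 at 0 in Fb-Par. The 10 perineurial markers, 1 of which (Ntn4) is also in a list of basement membrane genes used here, summed to 254 to 262, 350 to 360 and 137 to 151 TPM, with Cldn1 at 0 in Fb-Skn and Lypd2 in all types. The high sum of Fb-Par was mostly Ntn4. Without it the other 9 summed to 226 to 237, 51.0 to 55.9 and 81.95 to 91.13 TPM. Fb-Par was then lowest in the sum, but much of that sum was Slc2a1 (mean 145, 34.9 and 69.0 TPM). Single markers differed in their order. Cldn1 (0.10, 0.32 and 0 TPM) and Tenm2 (0.39, 4.18 and 0.043 TPM) were highest in Fb-Par. Msln (43.8, 0.48 and 1.44 TPM) and Stxbp6 (28.2, 4.06 and 3.73 TPM) were highest in Fb-Epn. The 7 macrophage markers found of 8 listed summed to 231 to 259, 56.0 to 61.0 and 18.6 to 20.5 TPM. The 6 adipocyte markers gave 44.7 to 58.9, 22.0 to 23.6 and 1.26 to 1.45 TPM, with Cidec at 0 in all types, and without Fabp4 the other 5 gave 0.869 to 2.06, 5.72 to 7.10 and 0.725 to 0.950 TPM. The 8 keratinocyte markers stayed between 2.17 and 4.36 TPM in all libraries, with Krt1 and Krt15 at 0, and without Krt10 the other 7 gave at most 0.299 TPM in nerve libraries and 1.21 to 1.65 TPM in Fb-Skn. The part of these cells in the values below was not tested.

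Transcripts of the 10 genes were abundant, and most so in Fb-Par. Together they made up 2.17 to 2.27% of all counted reads in Fb-Par, against 0.781 to 0.810% in Fb-Epn and 0.773 to 0.798% in Fb-Skn. Their summed level was 8169 ± 218 TPM in Fb-Par, 2920 ± 52.4 in Fb-Epn and 2931 ± 97.3 in Fb-Skn (mean ± SD, n = 3 each). On the TPM scale, which has no correction for composition, the summed levels of Fb-Epn and Fb-Skn differed by less than their SD. Single genes differed in both directions between these types, with mean Col4a1 at 758 against 534 TPM and mean Nid2 at 72.4 against 677 TPM. In all 3 types Nid1, Col4a1, Col4a2 and Hspg2 were among the genes with high levels, whereas Col4a3, Col4a4 and Col4a6 were detected by few reads.

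**Figure D1:**
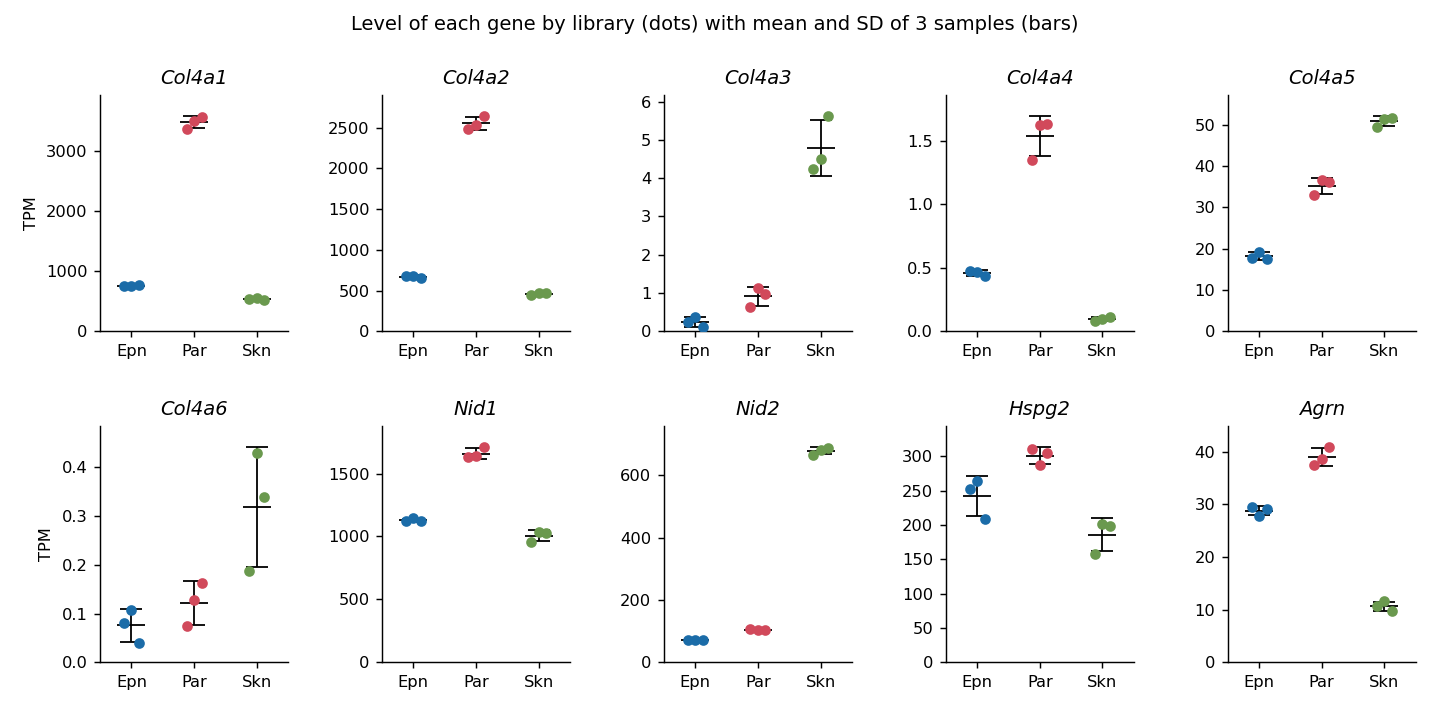
Level of each of the 10 genes (vertical axis, TPM, from 0 and scaled for each gene) in the 3 samples of epineurial, parenchymal and skin fibroblasts; dots are samples, and bars are the mean and SD. Col4a1, Col4a2, Col4a4, Nid1, Hspg2 and Agrn were highest in Fb-Par, and Col4a3, Col4a5, Col4a6 and Nid2 in Fb-Skn.

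Counts were compared between types with edgeR's quasi-likelihood test, fitted over 13273 genes with TMM scaling and with p-values adjusted by the Benjamini–Hochberg method over all of them. A gene was called at an adjusted p under 0.01, and as changed by more than 4-fold when its log2 fold change also passed 2 in size. Col4a6 was below the filter on low counts, so that 9 of the 10 genes were tested. Between Fb-Epn and Fb-Par, 9 of 9 were called, all lower in Fb-Epn. In that comparison 38.8% of all tested genes were called, and 18.6% were called lower in Fb-Epn. Between Fb-Par and Fb-Skn, 9 of 9 were called, against 45.6% of all tested genes. Of these, 6 were higher in Fb-Par (Col4a1, Col4a2, Col4a4, Nid1, Hspg2 and Agrn; background 23.2%) and 3 were lower (Col4a3, Col4a5 and Nid2; background 22.4%). Between Fb-Epn and Fb-Skn, 7 of 9 were called, against 43.9% of all tested genes. Here 4 were higher in Fb-Epn (Col4a1, Col4a2, Col4a4 and Agrn; background 23.0%), 3 were lower (Col4a3, Col4a5 and Nid2; background 20.9%), and Nid1 and Hspg2 did not pass. Col4a3 and Col4a4 had fewer than 10 reads in some libraries and passed the filter through the types where they were higher, so the counts are a description. Each type enters 2 of the 3 comparisons, which therefore share libraries.

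**Figure D2:**
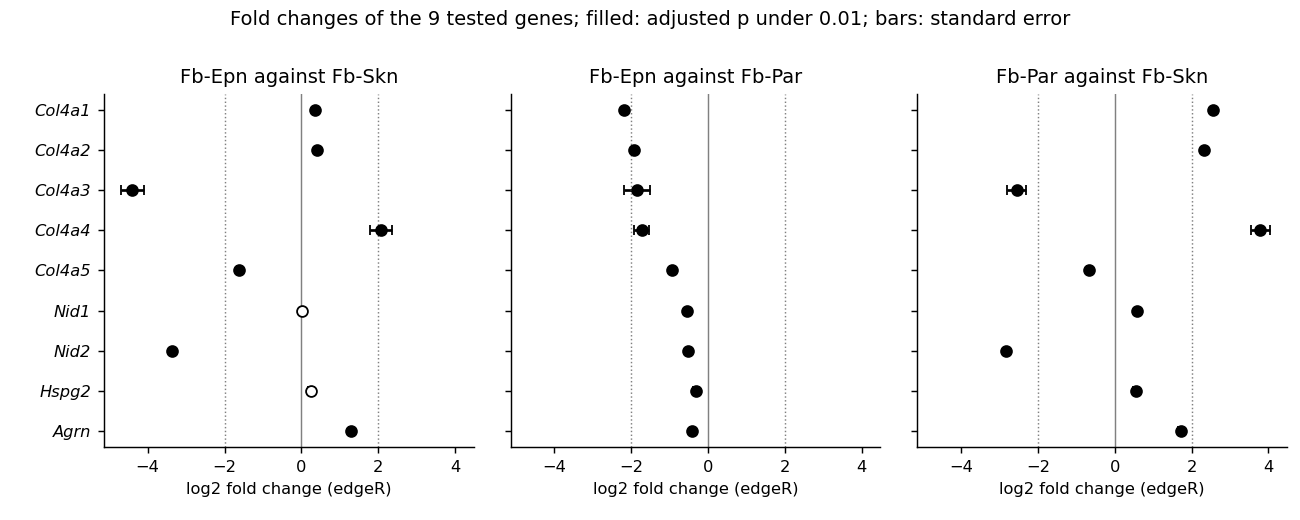
Log2 fold change (horizontal axis, edgeR) of the 9 tested genes in the 3 comparisons, positive where the first type is higher; bars are standard errors, filled dots passed an adjusted p of 0.01, and dotted lines mark a log2 fold change of 2. All 9 genes lie left of 0 in Fb-Epn against Fb-Par, and the genes fall on both sides of 0 in the comparisons with Fb-Skn.

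Changes of more than 4-fold were called for 1 gene in Fb-Epn against Fb-Par (Col4a1), for 3 in Fb-Epn against Fb-Skn (Col4a3, Col4a4 and Nid2) and for 5 in Fb-Par against Fb-Skn (Col4a1 to Col4a4 and Nid2). Over all tested genes, 6.48%, 8.44% and 8.54% changed by this much in either direction. The shares higher and lower in the first type were 4.09% and 2.39% in Fb-Epn against Fb-Par, 6.22% and 2.22% in Fb-Epn against Fb-Skn, and 5.86% and 2.67% in Fb-Par against Fb-Skn. The first count became 2 without Fb-Epn replicate 2 or without Fb-Par replicate 1, when the log2 fold change of Col4a3 reached -2.31 and -2.07. The median log2 fold change of the 9 genes was -0.94 in Fb-Epn against Fb-Par, 0.57 in Fb-Par against Fb-Skn and 0.24 in Fb-Epn against Fb-Skn. Over all tested genes these medians were -0.00018, -0.012 and -0.0028.

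Col4a1 and Col4a2, the chains of the common collagen IV trimer, were far higher in Fb-Par than in either other type. Col4a1 (chr16:83522162-83632153, rn6, plus strand) was at 754, 757 and 761 TPM in Fb-Epn, 3360, 3500 and 3560 TPM in Fb-Par, and 530, 546 and 525 TPM in Fb-Skn. Every Fb-Par sample was thus above every other sample, and Fb-Epn lay above Fb-Skn without overlap. The TPM values of the groups did not overlap for 57.3% of all tested genes in Fb-Epn against Fb-Par, 61.7% in Fb-Par against Fb-Skn and 61.4% in Fb-Epn against Fb-Skn, so that separation of the groups was common. In Fb-Par it ranked 24 of 32883 genes by mean TPM and alone took 1.02 to 1.07% of all counted reads. Col4a1 was 4.55-fold lower in Fb-Epn than Fb-Par (log2 fold change -2.19, SE 0.026, edgeR adjusted p = 6.0e-17) and 5.86-fold higher in Fb-Par than Fb-Skn (2.55, SE 0.026, edgeR adjusted p = 6.8e-18). The difference between Fb-Epn and Fb-Skn was small, at 1.29-fold, and passed the test (log2 fold change 0.37, SE 0.025, edgeR adjusted p = 1.2e-08).

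Col4a2 (chr16:83387364-83438561, rn6, minus strand) followed the same order. It was at 673, 685 and 656 TPM in Fb-Epn, 2485, 2538 and 2642 TPM in Fb-Par, and 447, 473 and 466 TPM in Fb-Skn. It was 3.78-fold lower in Fb-Epn than Fb-Par (log2 fold change -1.92, SE 0.028, edgeR adjusted p = 3.6e-16) and 4.98-fold higher in Fb-Par than Fb-Skn (2.32, SE 0.028, edgeR adjusted p = 4.1e-17). Fb-Epn exceeded Fb-Skn by 1.32-fold (0.40, SE 0.027, edgeR adjusted p = 1.2e-08). Col4a1 and Col4a2 together made up 99.4% of the summed TPM of the 6 collagen IV genes in Fb-Par, 98.7% in Fb-Epn and 94.7% in Fb-Skn (SD 0.027, 0.063 and 0.15, n = 3 each). The summed collagen IV level was 6067 ± 181 TPM in Fb-Par, 1447 ± 13.5 in Fb-Epn and 1052 ± 22.4 in Fb-Skn (mean ± SD, n = 3 each).

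Col4a3 and Col4a4, whose promoter windows above share 88 bases, went in opposite directions between the nerve types and Fb-Skn. Both chains occur with the Col4a5 chain in the collagen IV of the kidney glomerulus, and both were detected by few reads here. Col4a3 (chr9:88357556-88485830, rn6, plus strand) was detected by 8, 14 and 4 reads in Fb-Epn, by 23, 36 and 32 in Fb-Par, and by 154, 143 and 180 in Fb-Skn. These reads correspond to 0.24, 0.37 and 0.12 TPM, 0.63, 1.14 and 0.96 TPM, and 4.24, 4.50 and 5.62 TPM. The 3 types did not overlap, and Fb-Skn was highest. Col4a3 was 21.1-fold lower in Fb-Epn than Fb-Skn (log2 fold change -4.40, SE 0.30, edgeR adjusted p = 1.2e-08) and 5.86-fold lower in Fb-Par than Fb-Skn (-2.55, SE 0.25, edgeR adjusted p = 6.6e-07). It was also 3.60-fold lower in Fb-Epn than Fb-Par (-1.85, SE 0.34, edgeR adjusted p = 4.0e-04). With 4 to 14 reads in Fb-Epn, the folds of Col4a3 for that type are imprecise.

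Col4a4 (chr9:88232455-88357182, rn6, minus strand) had its lowest level where Col4a3 had its highest. It was detected by 26, 29 and 24 reads in Fb-Epn, by 81, 84 and 89 in Fb-Par, and by 5, 5 and 6 in Fb-Skn. The levels were 0.47, 0.47 and 0.43 TPM, 1.35, 1.62 and 1.63 TPM, and 0.084, 0.096 and 0.11 TPM. The types did not overlap. Col4a4 was 13.9-fold higher in Fb-Par than Fb-Skn (log2 fold change 3.79, SE 0.25, edgeR adjusted p = 9.0e-09) and 4.18-fold higher in Fb-Epn than Fb-Skn (2.06, SE 0.28, edgeR adjusted p = 2.0e-05). It was 3.31-fold lower in Fb-Epn than Fb-Par (-1.73, SE 0.20, edgeR adjusted p = 4.6e-06). Fb-Par thus had more of both chains than Fb-Epn, and Fb-Skn had the most Col4a3 together with the least Col4a4. On the log2(FPKM + 1) scale, where such low values are compressed, Col4a4 in Fb-Epn against Fb-Skn no longer passed (limma adjusted p = 0.015), nor did Col4a3 in Fb-Epn against Fb-Par (limma adjusted p = 0.013). Without Fb-Skn replicate 1 the log2 fold change of Col4a4 in Fb-Epn against Fb-Skn was 1.97, just under the 4-fold limit. With 5 to 6 reads in Fb-Skn, the folds of Col4a4 against that type are imprecise. In Fb-Par against Fb-Skn its log2 fold change ranged from 0.73 to 3.91 over 19 alternatives.

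Col4a5 (chrX:112769645-112983685, rn6, plus strand), which can join both of the rarer trimers, rose in steps from Fb-Epn over Fb-Par to Fb-Skn. It was at 17.7, 19.3 and 17.6 TPM in Fb-Epn, 33.0, 36.7 and 36.1 TPM in Fb-Par, and 49.5, 51.5 and 51.7 TPM in Fb-Skn. The groups did not overlap. It was 3.08-fold lower in Fb-Epn than Fb-Skn (log2 fold change -1.62, SE 0.054, edgeR adjusted p = 2.9e-12), 1.92-fold lower in Fb-Epn than Fb-Par (-0.94, SE 0.054, edgeR adjusted p = 2.0e-09) and lower in Fb-Par than Fb-Skn (-0.68, SE 0.051, edgeR adjusted p = 3.3e-08). Its share of the summed collagen IV TPM was 1.22 to 1.32% in Fb-Epn, 0.562 to 0.604% in Fb-Par and 4.79 to 4.93% in Fb-Skn. Its level exceeded those of Col4a3 and Col4a4 in every library.

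Col4a6 (chrX:112405647-112473822, rn6, minus strand), the partner of Col4a5, was scarcely detected. It had 2, 3 and 1 reads in Fb-Epn, 2, 3 and 4 in Fb-Par, and 5, 10 and 8 in Fb-Skn, that is 0.040 to 0.11, 0.074 to 0.16 and 0.19 to 0.43 TPM. Fb-Epn and Fb-Par overlapped, and all 3 Fb-Skn values were above those of the nerve types. When every gene with at least 1 read was tested, the differences of Col4a6 did not pass, with edgeR adjusted p = 0.025 for Fb-Epn against Fb-Skn, 0.64 for Fb-Epn against Fb-Par and 0.099 for Fb-Par against Fb-Skn. These read numbers are too low to tell whether the types differ. The distances between the starts of this pair, and between those of Col4a1 and Col4a2, differ between rn6 and GRCr8. Any effect of that on the counts of these genes was not tested.

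**Figure D3:**
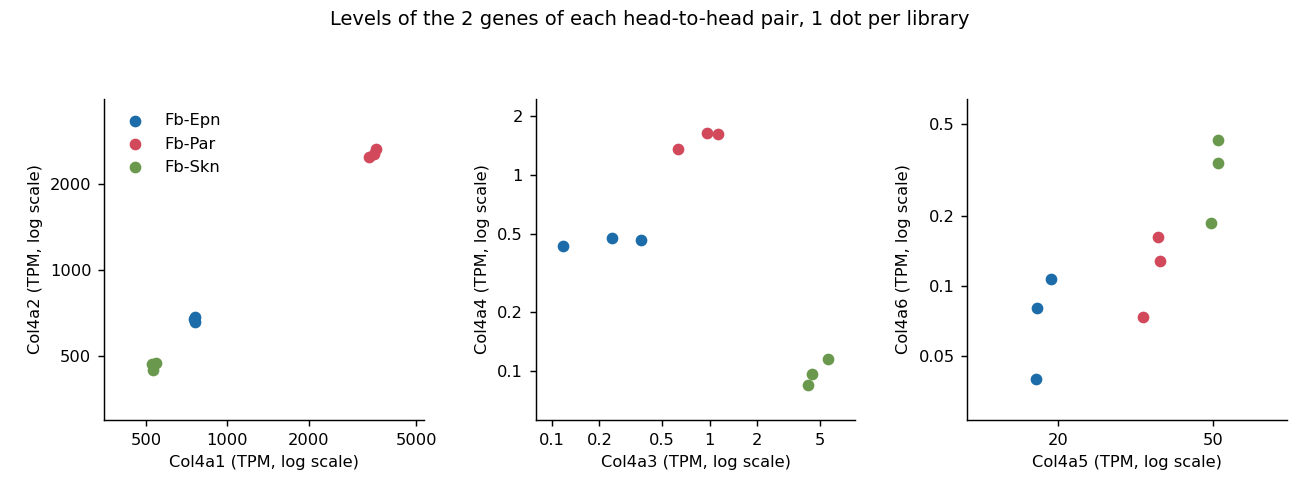
Level of the minus-strand gene (vertical axis) against that of its plus-strand partner (horizontal axis) for the 3 head-to-head pairs, both in TPM on log scales, with 1 dot per library coloured by type. Col4a1 and Col4a2 lie along a rising line, whereas Fb-Skn combined the highest Col4a3 (4.24 to 5.62 TPM) with the lowest Col4a4 (0.084 to 0.11 TPM).

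Nid1 was highest in Fb-Par, and Nid2 in Fb-Skn. Nid1 (chr17:90553394-90627101, rn6, minus strand) was at 1123, 1144 and 1119 TPM in Fb-Epn, 1629, 1636 and 1707 TPM in Fb-Par, and 956, 1035 and 1025 TPM in Fb-Skn. It was the member with the highest mean TPM in Fb-Epn and Fb-Skn, ranking 121 and 138 of 32883 genes, and it ranked 63 in Fb-Par. Nid1 was 1.46-fold lower in Fb-Epn than Fb-Par (log2 fold change -0.54, SE 0.026, edgeR adjusted p = 2.2e-10) and 1.49-fold higher in Fb-Par than Fb-Skn (0.57, SE 0.026, edgeR adjusted p = 9.8e-11). Between Fb-Epn and Fb-Skn the TPM values did not overlap, but the scaled counts differed by 1.02-fold only (0.028, SE 0.026, edgeR adjusted p = 0.38). This call depended on scaling. It passed with library size as the only scaling (log2 fold change 0.12, edgeR adjusted p = 7.8e-04) and on log2(TPM + 1) (0.17, limma adjusted p = 0.0028).

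Nid2 (chr15:4894213-4951917, rn6, minus strand) was high in Fb-Skn. It was at 72.4, 71.9 and 72.9 TPM in Fb-Epn, 107, 104 and 104 TPM in Fb-Par, and 665, 681 and 686 TPM in Fb-Skn. All Fb-Skn samples were several times above all nerve samples, and Fb-Par lay above Fb-Epn without overlap. Nid2 was 10.3-fold lower in Fb-Epn than Fb-Skn (log2 fold change -3.36, SE 0.029, edgeR adjusted p = 2.2e-18) and 7.14-fold lower in Fb-Par than Fb-Skn (-2.84, SE 0.028, edgeR adjusted p = 6.4e-18). Between the nerve types it was 1.44-fold lower in Fb-Epn (-0.53, SE 0.028, edgeR adjusted p = 7.5e-10). By mean TPM it ranked 205 of 32883 genes in Fb-Skn, 1592 in Fb-Par and 2313 in Fb-Epn.

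Mean perlecan was highest in Fb-Par, by 1.24-fold over Fb-Epn and 1.46-fold over Fb-Skn, and agrin was lowest in Fb-Skn. Hspg2 (chr5:155812105-155885829, rn6, plus strand) was at 252, 265 and 210 TPM in Fb-Epn, 311, 288 and 305 TPM in Fb-Par, and 159, 201 and 198 TPM in Fb-Skn. Fb-Epn replicate 3 and Fb-Skn replicate 1 lay below the other samples of their type. Hspg2 was 1.46-fold higher in Fb-Par than Fb-Skn (log2 fold change 0.55, SE 0.081, edgeR adjusted p = 4.6e-05). It was 1.24-fold lower in Fb-Epn than Fb-Par (-0.30, SE 0.081, edgeR adjusted p = 0.0059). That call was lost without Fb-Epn replicate 1, Fb-Epn replicate 3, Fb-Par replicate 1 or Fb-Par replicate 3 (edgeR adjusted p = 0.012, 0.028, 0.024 and 0.021) with DESeq2 (adjusted p = 0.018), and with limma on log2(TPM + 1), log2(TPM + 0.1) and log2(FPKM + 1) (adjusted p = 0.028, 0.029 and 0.017). Fb-Epn and Fb-Skn differed by 1.18-fold, which did not pass (0.24, SE 0.081, edgeR adjusted p = 0.021), but passed without Fb-Epn replicate 3 (0.34, edgeR adjusted p = 0.0012). The gene model overlaps 1 microRNA gene on the same strand, which had 0 reads. The other 9 gene models overlap 0 annotated genes.

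Agrn (chr5:173589819-173622645, rn6, minus strand) was at 29.5, 27.9 and 29.1 TPM in Fb-Epn, 37.5, 38.6 and 40.8 TPM in Fb-Par, and 10.6, 11.6 and 9.81 TPM in Fb-Skn. The groups did not overlap. Agrn was 3.29-fold higher in Fb-Par than Fb-Skn (log2 fold change 1.72, SE 0.060, edgeR adjusted p = 5.8e-12) and 2.45-fold higher in Fb-Epn than Fb-Skn (1.29, SE 0.061, edgeR adjusted p = 2.0e-10). It was 1.34-fold lower in Fb-Epn than Fb-Par (-0.43, SE 0.055, edgeR adjusted p = 1.5e-05). Perlecan was the more abundant proteoglycan transcript in all 9 libraries.

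Within a library, the balance between related genes was compared as a ratio of TPM, which does not depend on the scaling between libraries. With 3 samples a group, the smallest p that the exact permutation test can give is 0.10 (two-sided, 9 comparisons), so that no ratio could pass a threshold of 0.05. Adjusted over the 9 comparisons, a p of 0.10 became 0.15, and those of 0.40, 0.60 and 0.70 became 0.51, 0.67 and 0.70. The ratio of Col4a1 to Col4a2 was 1.36 ± 0.017 in Fb-Par, 1.13 ± 0.028 in Fb-Epn and 1.16 ± 0.031 in Fb-Skn (mean ± SD, n = 3 each). All Fb-Par values, 1.35 to 1.38, were above all others, 1.11 to 1.19 (exact permutation p = 0.10 against each type), and Fb-Epn and Fb-Skn overlapped (exact permutation p = 0.40).

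The ratio of Nid1 to Nid2 separated skin from nerve. It was 15.6 ± 0.29 in Fb-Epn and 15.8 ± 0.63 in Fb-Par, which overlapped (exact permutation p = 0.70), against 1.48 ± 0.042 in Fb-Skn (exact permutation p = 0.10 against each). Although both nidogens were higher in Fb-Par than Fb-Epn, their ratio thus differed by less than the spread between samples. The ratio of Hspg2 to Agrn was 17.5 ± 2.65 in Fb-Skn, against 8.41 ± 1.15 in Fb-Epn and 7.74 ± 0.48 in Fb-Par (mean ± SD, n = 3 each). The Fb-Skn values, 14.9 to 20.2, were above all nerve values, 7.20 to 9.49 (exact permutation p = 0.10 against each type), and the nerve types overlapped (exact permutation p = 0.60).

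**Figure D4:**
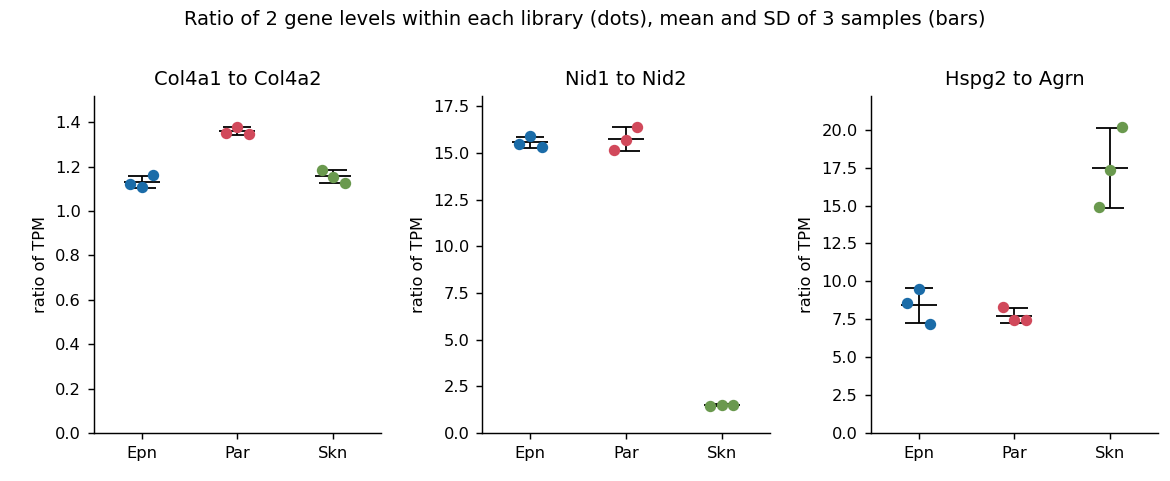
Ratio of TPM (vertical axis, from 0) of Col4a1 to Col4a2, Nid1 to Nid2 and Hspg2 to Agrn in each library (dots), with mean and SD of 3 samples (bars). Fb-Par stands above the other types for Col4a1 to Col4a2 (1.36), and Fb-Skn stands apart for Nid1 to Nid2 (1.48) and Hspg2 to Agrn (17.5).

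To describe which genes varied like these, log2(TPM + 1) was correlated over the 9 libraries with each of the other 13272 tested genes. With 3 types in clusters, such a correlation mainly reflects the order and spacing of the 3 types. The gene most like Col4a1 was Col4a2 (Pearson r = 0.9992), followed by Smpd3 (0.9991) and Tgm2 (0.998). For Col4a2 the order was Cavin2 (0.9992), Col4a1 (0.9992) and Smpd3 (0.999). In contrast, Col4a4 ranked 8369 of 13272 genes for Col4a3, with r = -0.54. Col4a3 was most like Tmem119 (r = 0.991), Sort1 (0.991) and Serp1 (0.990), and Col4a4 was most like Akap12, Col5a3 and Lum (r = 0.997, 0.997 and 0.996). Col4a4 varied like the common chains, at r = 0.984 with Col4a1 and 0.989 with Col4a2, and Col4a3 varied like Nid2, at r = 0.981.

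The genes most like Nid2 were Loxl1 (r = 0.9994), Mfge8 (0.999) and Prima1 (0.998), Loxl1 being an enzyme that cross-links elastic fibres. Nid1 was most like Fermt2, Sh3bp5 and Agap1 (r = 0.998, 0.997 and 0.997), and its r with Col4a2 was 0.996. Col4a5 was most like Fez2, Tmem204 and Tagln (r = 0.998, 0.997 and 0.996), Tagln being an actin-binding protein of contractile cells. Agrn was most like Clec3b, Abi3bp and Ebf2 (r = 0.998, 0.997 and 0.997). The genes most like Hspg2 included AABR07001099.1 (r = 0.992) and Vps13c (r = 0.984). Each value rests on the same 9 libraries.

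Laminins form the other network of basement membranes. Of 11 laminin chains 9 were tested. In Fb-Par against Fb-Skn 6 were higher, 2 lower and 1 did not pass (median log2 fold change 0.57; background 23.2% higher, 22.4% lower). Lama2, the chain of muscle and Schwann cell basement membrane, was at 52.0 TPM in Fb-Par and 7.07 TPM in Fb-Skn (log2 fold change 2.73, SE 0.066, edgeR adjusted p = 7.9e-14), and Lama5 at 6.82 and 0.386 TPM (3.99, SE 0.14, edgeR adjusted p = 6.1e-12). Lamb3, a chain of epidermal laminin, went the other way, at 0.658 TPM in Fb-Par (18, 8 and 16 reads) and 15.7 TPM in Fb-Skn (-4.70, SE 0.18, edgeR adjusted p = 1.7e-11). In Fb-Epn against Fb-Par 2 chains were higher on the log2 scale, Lama3 (1.62, with 14, 11 and 17 reads in Fb-Par) and Lamb3 (2.71). Another 6 were lower (Lama5 among them, -1.94) and 1 did not pass (median -0.63, background 20.2% higher and 18.6% lower). In Fb-Epn against Fb-Skn 5 were higher (Lama2, 1.18, and Lama5, 2.05, among them), 3 lower (Lamb3, -1.98, among them) and 1 did not pass (median 0.14; background 23.0% higher, 20.9% lower), the 3 lower becoming 1 with limma on log2(TPM + 0.1).

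Other basement membrane components, gave 15 tested genes of 17 listed. In Fb-Epn against Fb-Par 2 were higher, 11 lower and 2 did not pass (median -1.10; background 20.2% higher, 18.6% lower). In Fb-Epn against Fb-Skn 3 were higher, 10 lower and 2 did not pass (median -0.92; background 23.0% higher, 20.9% lower), with 7 to 8 lower with limma. In Fb-Par against Fb-Skn 6 were higher, 7 lower and 2 did not pass (median -0.52; background 23.2% higher, 22.4% lower). Smoc1, a calcium-binding matrix protein, was at 569 TPM in Fb-Par and 42.5 TPM in Fb-Epn (log2 fold change -3.73 in Fb-Epn, SE 0.070), and was detected by 0, 5 and 2 reads in Fb-Skn, too few for a stable fold. Egflam (pikachurin) was lower in Fb-Epn than Fb-Par (-3.71, SE 0.047) and Fb-Skn (-4.97, SE 0.047), with 12.2, 161 and 346 TPM in epineurial, parenchymal and skin fibroblasts. Ntn4, a netrin that binds laminin, was at 26.1 TPM in Fb-Epn and 302 TPM in Fb-Par (-3.52, SE 0.059). Tinagl1 was higher in Fb-Par than Fb-Skn (6.38, SE 0.16), but had only 11, 14 and 12 reads in Fb-Skn, so that its fold is imprecise. Fbln1 was lower in Fb-Par than Fb-Skn (-2.30, SE 0.075), and Hmcn1 was lower in Fb-Epn than Fb-Skn (-2.94, SE 0.076).

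Genes for folding, modifying and cross-linking collagen chains gave 20 tested genes of 21. In Fb-Par against Fb-Skn 3 were higher, 16 lower and 1 did not pass (median -0.39), where 23.2% of all tested genes were higher and 22.4% lower. The 16 lower became 10 with limma on log2(TPM + 1) or log2(TPM + 0.1) and 13 with limma on log2(FPKM + 1). In Fb-Epn against Fb-Skn 4 were higher, 12 lower and 4 did not pass (median -0.31; background 23.0% higher, 20.9% lower), and in Fb-Epn against Fb-Par 11 were higher, 2 lower and 7 did not pass (median 0.16; background 20.2% higher, 18.6% lower). Most of these enzymes also serve the fibrillar collagens, and the list is not particular to collagen IV. Pxdn (peroxidasin), which cross-links collagen IV itself, was at 223, 267 and 124 TPM in epineurial, parenchymal and skin fibroblasts, and was higher in Fb-Epn (log2 fold change 0.71, SE 0.037) and Fb-Par (0.95, SE 0.037) than Fb-Skn. Loxl2, a lysyl oxidase-like enzyme, was at 413 TPM in Fb-Epn and 1061 TPM in Fb-Par (-1.35, SE 0.030). Plod2, a lysyl hydroxylase, was highest in Fb-Epn (722, 345 and 161 TPM; 2.02 against Fb-Skn, 1.08 against Fb-Par and 0.95 in Fb-Par against Fb-Skn). Plod1 was higher in Fb-Epn than Fb-Par (0.79), and P4ha3 was lower in Fb-Epn (-1.19) and Fb-Par (-1.97) than Fb-Skn.

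The enzymes that build and trim heparan sulfate chains, which are not particular to perlecan and agrin, gave 21 tested genes of 23. In Fb-Par against Fb-Skn 11 were higher, 5 lower and 5 did not pass (median 0.43; background 23.2% higher, 22.4% lower), the 5 lower becoming 3 without Fb-Par replicate 1 and with limma on either TPM scale. In Fb-Epn against Fb-Skn 10 were higher, 3 lower and 8 did not pass (median 0.24; background 23.0% higher, 20.9% lower), the 3 lower becoming 1 with limma on either TPM scale. Between the nerve types 4 were higher in Fb-Epn, 4 lower and 13 did not pass (median -0.032), where 20.2% of all tested genes were higher and 18.6% lower, so that these counts were near the background. Sulf1, an extracellular sulfatase that removes 6-O-sulfates, was at 335, 285 and 101 TPM in epineurial, parenchymal and skin fibroblasts, higher in Fb-Epn (log2 fold change 1.59, SE 0.029) and in Fb-Par (1.35, SE 0.029) than Fb-Skn. The sulfotransferases Hs6st1 and Hs6st2 were also higher in Fb-Epn than Fb-Skn (0.80, SE 0.039, and 1.25, SE 0.16), and Hs6st2 was higher in Fb-Epn than Fb-Par (2.05, SE 0.17). Ndst3, a sulfotransferase detected by 3 to 9 reads in Fb-Par, was lower there than in both other types, with log2 values of 4.52 for Fb-Epn over Fb-Par (SE 0.25) and -4.16 for Fb-Par over Fb-Skn (SE 0.26). Extl3 was lower in Fb-Epn than Fb-Par (-0.67) and higher in Fb-Par than Fb-Skn (0.97).

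Of 16 receptor genes linked to basement membrane proteins, laminins included, 15 were tested. In Fb-Par against Fb-Skn 12 were higher, 3 lower and 0 did not pass (median 0.66, background 23.2% higher and 22.4% lower). The higher count was 9 to 11 when 1 library was left out, and the lower count was 1 with limma on log2(FPKM + 1). Itga1, the alpha subunit of the integrin that binds collagen IV, was at 104, 292 and 36.9 TPM in epineurial, parenchymal and skin fibroblasts (log2 fold change 2.84, SE 0.071, edgeR adjusted p = 1.1e-13 in Fb-Par against Fb-Skn). The laminin-binding Itga7 was also higher in Fb-Par than Fb-Skn (2.38, SE 0.13). Itga10, another collagen-binding subunit, had only 6, 6 and 5 reads in Fb-Skn, so that its folds against that type are imprecise. It was higher in Fb-Par than Fb-Skn (5.04, SE 0.24) and in Fb-Epn (-2.56 in Fb-Epn, SE 0.18), and higher in Fb-Epn than Fb-Skn (2.48, SE 0.28). In Fb-Epn against Fb-Skn 7 receptors were higher, 4 lower and 4 did not pass (median 0.15; background 23.0% higher, 20.9% lower). Ptprf, a receptor phosphatase, was higher in Fb-Epn there (2.29, SE 0.060), and Itga2 was at 3.35 TPM in Fb-Epn, 0.648 TPM in Fb-Par and 0.136 TPM in Fb-Skn (4, 1 and 3 reads). In Fb-Epn against Fb-Par 4 were higher (Itga2, 2.37, among them), 9 lower and 2 did not pass (median -0.43; background 20.2% higher, 18.6% lower). Lrp4, the receptor through which agrin acts at the neuromuscular junction, was lower in Fb-Epn than Fb-Par (-2.73, SE 0.15).

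All 15 proteases, inhibitors and the heparanase that act on these proteins were tested, and calls fell in both directions. In Fb-Epn against Fb-Skn 6 were higher, 6 lower and 3 did not pass (median 0.26; background 23.0% and 20.9%), in Fb-Epn against Fb-Par 6 were higher, 7 lower and 2 did not pass (median 0.071; background 20.2% and 18.6%), and in Fb-Par against Fb-Skn 7 were higher, 6 lower and 2 did not pass (median 0.70; background 23.2% and 22.4%). Timp3, a matrix-bound inhibitor of metalloproteinases, was at 33.1 TPM in Fb-Epn, 549 TPM in Fb-Par and 306 TPM in Fb-Skn, lower in Fb-Epn than Fb-Par (log2 fold change -4.04, SE 0.050) and Fb-Skn (-3.34, SE 0.050). Mmp15 was higher in Fb-Epn (3.59, SE 0.13) and Fb-Par (5.01, SE 0.12) than Fb-Skn, where it had only 14, 17 and 15 reads. Mmp9, which cleaves collagen IV, was at 7.24, 0.788 (14, 8 and 16 reads) and 5.07 TPM, higher in Fb-Epn than Fb-Par (3.19, SE 0.24) and lower in Fb-Par than Fb-Skn (-2.82, SE 0.25). Mmp3 was detected by 16, 4 and 6 reads in Fb-Epn, 3, 1 and 1 in Fb-Par, and 158, 169 and 143 in Fb-Skn, and was lower in Fb-Epn (-4.36, SE 0.33) and Fb-Par (-6.63, SE 0.43) than Fb-Skn. Without Fb-Epn replicate 1 the first of these was -5.17, and without Fb-Par replicate 1 the second was -7.23. Its call between the nerve types (2.26, edgeR adjusted p = 0.0085) was lost without Fb-Epn replicate 1 (1.45, edgeR adjusted p = 0.093), without Fb-Par replicate 1 (2.87, edgeR adjusted p = 0.011), without any other 1 Fb-Par or Fb-Skn replicate (0.012 to 0.036) and with limma (0.011 to 0.048).

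**Figure D5:**
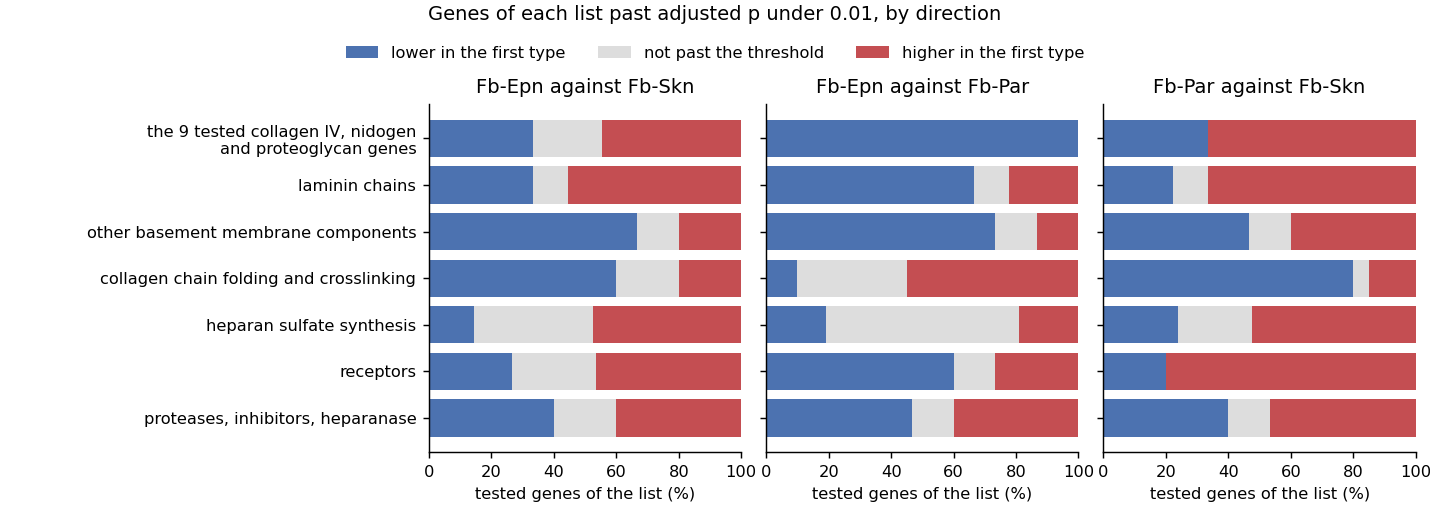
Percentage of the tested genes of each list (horizontal axis) that were lower (blue), not past an adjusted p of 0.01 (grey) or higher (red) in the first type of each comparison; edgeR, 9 to 21 tested genes a list. All 9 collagen IV, nidogen and proteoglycan genes were lower in Fb-Epn than Fb-Par (8 with limma on log2(TPM + 1), 7 on log2(FPKM + 1)). Of the collagen folding and cross-linking genes, 16 of 20 were lower in Fb-Par than Fb-Skn (10 of 20 with limma on log2(TPM + 1)).

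The direction of the calls over all genes in the 2 comparisons with Fb-Skn depended on scaling. Of all called genes, 52.3% were higher in Fb-Epn and 50.8% in Fb-Par than Fb-Skn with TMM scaling, 63.7% and 61.9% with library size as the only scaling, 69.0% and 66.9% with limma on log2(TPM + 1), and 63.2% and 61.0% with limma on log2(FPKM + 1). On log2(TPM + 1) the median gene was 0.13 higher in Fb-Epn and 0.12 higher in Fb-Par than Fb-Skn. TPM levels of nerve cultures above are to be read relative to that shift when set beside those of Fb-Skn, while the fold changes of edgeR have the shift removed. The direction of each of the 9 tested genes was the same under all scalings.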

How the data were processed

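Poly(A) RNA of 9 fibroblast samples (3 per type) was sequenced as paired 150 bp reads with a directional kit. Per the submitters' processing notes, reads were checked with FastQC 0.11.7, trimmed with Trimmomatic 0.38, mapped to rn6 with HISAT2 2.1.0 and counted with featureCounts 1.6.3. The annotation release and the strand setting of the counting are not given in the sources used here. The authors deposited raw counts per gene, TPM values and FPKM values. In the deposited tables, counts divided by TPM gave the same length for a gene in every library, so that TPM is a rescaling of the counts, whereas FPKM was not an exact rescaling. TPM has no correction for composition. Total counts were 10084584 to 12310506, so genes with few reads are imprecise.

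Samples were grouped by the labelled tissue. Counts were tested with edgeR 4.0.16 in R 4.3.3 (quasi-likelihood F test, TMM scaling, the default filter on low expression, 13273 genes, all 9 libraries in 1 model, Benjamini–Hochberg adjustment over all tested genes, threshold 0.01 and, for large changes, a log2 fold change of 2). The standard error is the log2 fold change divided by the square root of F. The procedure was also run on simulated counts drawn with the fitted spread between samples. Such counts cannot address whether the samples of a type are technical replicates. Ratios of TPM were compared on the log2 scale with two-sided exact permutation tests (SciPy 1.17.1). Alternatives were other scalings and filters, DESeq2 1.42.0, limma 3.58.1 on log2(TPM + 1), log2(TPM + 0.1) and log2(FPKM + 1), the 2 compared types only, a replicate block and leaving out each library. Replicates were compared with each other by chi-square tests of their counts, and no pair agreed within sampling noise.

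The genes and lists were chosen with earlier results of these data known. Named beside the 10 genes are, for each list and comparison, up to 3 called genes with the largest change, and the 3 genes most correlated with each tested gene, of which 1 is not reported here. Gene symbols were matched to the tables directly or by RefSeq gene identifier (Hspg2, Lama3, Crtap, Mia3 and Col1a2). Hmcn2, Pecam1 and Itgam are not analysed here. Promoters and names are from RefSeq (GRCr8), and coordinates are otherwise those of the tables (rn6).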

Additional observations from a re-analysis of the deposited data

How the results depend on the processing

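Across 20 alternatives, 517 of 534 log2 fold changes of the 9 genes kept direction and call, 10 lost and 7 gained the call, and 0 reversed. The counts of called genes in Fb-Epn against Fb-Skn, Fb-Epn against Fb-Par and Fb-Par against Fb-Skn ranged from 7 to 8, 8 to 9 and 9 to 9 when each library was left out. For changes of more than 4-fold these ranges were 2 to 3, 1 to 2 and 5 to 5. In Fb-Epn against Fb-Par 8 genes were called with DESeq2 and with limma on either TPM scale. With limma on log2(FPKM + 1) 7 were called there, and all calls were lower in Fb-Epn. The count of more than 4-fold changes fell from 3 to 1 in Fb-Epn against Fb-Skn with at least 10 counts in every library, where Col4a3 and Col4a4 are no longer tested, and to 1 with limma on log2(FPKM + 1). It fell from 5 to 3 in Fb-Par against Fb-Skn under the same 2 settings and with limma on log2(TPM + 1); a pseudocount shrinks the fold of low genes. The log2 ratio of Nid1 to Nid2 in Fb-Epn against Fb-Par, -0.015, reversed to 0.015 without Fb-Par replicate 3 (range -0.043 to 0.015). The other ratios kept their direction, with ranges without 1 library of -0.29 to -0.25 (Fb-Epn against Fb-Par), -0.052 to -0.013 (Fb-Epn against Fb-Skn) and 0.22 to 0.25 (Fb-Par against Fb-Skn) for Col4a1 to Col4a2. Perlecan in Fb-Epn against Fb-Skn passed with library size only (edgeR adjusted p = 0.0027) and with every gene of at least 1 count (8.9e-05).

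Samples with the same number did not deviate together (r = -0.080 to 0.020 for the same number, -0.045 to 0.089 for different numbers). The sources do not say whether the same number marks a shared rat or day, and these values cannot decide it. With the replicate block, 7, 9 and 9 genes were called and 3, 1 and 5 changed by more than 4-fold, as without it. The pathway lists were put through the same alternatives after their values had been seen. Of 1061 fold changes of named list genes 1050 kept direction and call, the 11 that lost the call all being Mmp3 between the nerve types, the replicate block among them (edgeR adjusted p = 0.012), and 11 of 720 list counts moved by over 1.5 times. Low read numbers limit Col4a3, Col4a4 and above all Col4a6.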
